A study of Mus musculus with 12 samples.

Results

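The 46 genes described here encode the T cell receptor complex and the proteins that act directly downstream of it: the receptor chains and the CD4 coreceptor, surface molecules that tune the receptor, kinases, adaptors, the Ras and diacylglycerol arm, the calcium and NFAT arm, the BCL10 and MALT1 bridge to NF-kB, and the phosphatases, inhibitors and ubiquitin ligases that restrain the cascade. They were taken from the raw count table by symbol, with no use of measured values in the rule. All 46 were found among its 25189 genes. The list itself was chosen with earlier results of these data known. The shares called among these genes therefore describe the list and do not test it against all genes. All 46 also passed the low-count filter and were among the 13196 genes tested. The lowest count of any of them in any library was 391 reads, for Tec, and the highest 76118 reads, for Ptprc.

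The libraries were made from regulatory T (Treg) cells, a CD4+ lineage that holds other immune cells in check and depends on the transcription factor Foxp3. Spleen cells of female mice aged 4 weeks were sorted 2 times in succession as CD4+RFP+ or CD4+YFP+, and each of 3 groups had 4 libraries, numbered as in the labels. WT libraries (1, 3, 4 and 5) came from cells with a working Foxp3 allele marked with red fluorescent protein (Foxp3RFP). Foxp3-deficient libraries (1, 3, 4 and 5) came from cells using the Foxp3∆EGFPiCre allele, a non-functional Foxp3 allele that reports through EGFP and drives Cre. Double-deficient libraries (2, 3, 4 and 5) came from cells with that allele and deleted Rictor (Rictor∆/∆); Rictor is the defining subunit of mTOR complex 2. The hosts named are Foxp3∆EGFPiCre/RFP R26YFP and Foxp3∆EGFPiCre/+ Rictor∆/∆ R26YFP females, so that every host carried the Cre allele on one X chromosome, kept a working Foxp3 allele on the other and carried the R26YFP reporter. Cre is under the control of the Foxp3 locus, so Rictor deletion depends on cells that have switched that locus on. The labels do not tie a library to a mouse or say which reporter was sorted for which group. Where libraries share a mouse or a sort, p-values measure only the spread between these libraries, which may be technical.

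As background, a T cell receptor that meets peptide on an MHC molecule has its CD3 and zeta chains phosphorylated by the kinase Lck, which is brought in by CD4. Phosphorylated chains recruit ZAP70, which phosphorylates the scaffolds LAT and SLP-76 (Lcp2). That platform activates phospholipase C gamma (Plcg1), whose products open the calcium and NFAT arm and the diacylglycerol arm to Ras and NF-kB. Treg cells need receptor signals to develop and to keep their suppressive programme, and Foxp3 works together with NFAT at many of its targets.

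Levels are CPM, the reads of a gene scaled to the assigned reads of its library after TMM correction for differences in RNA composition, and are listed in the order of the replicate numbers. A gene was called higher or lower where the adjusted p of edgeR's quasi-likelihood F test, with Benjamini-Hochberg adjustment over all 13196 genes, was under 0.05, and fold changes (FC) are given on the log2 scale with their standard error (SE). Foxp3, the targeted gene, was at 705, 580.3, 690.2 and 556 CPM in the WT libraries, 142, 126, 117 and 87.9 CPM in the Foxp3-deficient libraries and 122, 91.8, 98.8 and 95.7 CPM in the double-deficient libraries. It fell in Foxp3-deficient cells (log2 FC -2.42, SE 0.14, adjusted p = 1.18e-08) and stayed below WT in double-deficient cells (log2 FC -2.63, SE 0.14, adjusted p = 2.95e-09). Rictor was at 146, 146, 168 and 133 CPM in the WT libraries, 199, 163, 229 and 164 CPM in the Foxp3-deficient libraries and 157, 130.1, 131 and 145 CPM in the double-deficient libraries. It rose in Foxp3-deficient cells against WT (log2 FC 0.35, SE 0.11, adjusted p = 0.0494), where the libraries overlapped. Between the deficient groups Rictor fell (log2 FC -0.42, SE 0.11, adjusted p = 0.0129). In double-deficient against WT cells it was not called (log2 FC -0.08, SE 0.11, adjusted p = 0.626). Reads counted over the whole gene do not check a deletion of part of it.

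Assigned reads per library ran from 15769700 to 26114000. The share of reads outside genes was 7.52 to 8.75% for WT, 6.22 to 9.27% for Foxp3-deficient libraries and 4.63 to 5.47% for the double-deficient ones, and the share of reads that did not align uniquely was 25.9 to 28.5%, 23 to 29.5% and 31.1 to 33.1%. For both shares, and for the share of reads that fell on more than 1 gene (2.29 to 2.34% against 2.41 to 2.46% for Foxp3-deficient and 2.405 to 2.58% for WT), the double-deficient libraries did not overlap either other group. They also did not overlap the Foxp3-deficient libraries in the share of reads assigned to genes (59.5 to 61.1% against 61.2 to 65.3%) or in mitochondrial transcripts (4818 to 6240.2 against 2407 to 4763 CPM). Each of these differences had an exact two-sided permutation p = 0.0286, the smallest that 4 against 4 libraries can give (adjusted p = 0.075 over 42 tests). The part of these values in the results below was not tested.

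All 6 T cell markers were tested and summed to 4829 to 5077 CPM for WT, 4739 to 5858 CPM for Foxp3-deficient and 4838 to 5455 CPM for double-deficient libraries, and the 6 Treg markers, Foxp3 included, to 2441 to 2720.1, 904 to 1021 and 1262 to 1407 CPM. Of 8 B cell markers 5 passed the low-count filter, and the sum of the 8 was 1269.6 to 1498 CPM for WT, 676 to 843 CPM for Foxp3-deficient and 774 to 944 CPM for double-deficient libraries. Nearly all of that sum was Ighm, while Ms4a1 and Blnk were at 0 to 1.22 CPM in every library. Cd79b was at 17.5 to 23.2 CPM for WT, 6.87 to 10.1 CPM for Foxp3-deficient and 14.01 to 19.3 CPM for double-deficient libraries and was called in all 3 comparisons, lower against WT in both deficient groups and higher between them (log2 FC 0.90, SE 0.16, adjusted p = 0.00131). Cd22, at 11.5 to 14.2, 4.44 to 15.4 and 0.396 to 4.28 CPM, was called lower in double-deficient cells against both other groups, and Bank1, at 4.51 to 8.06, 2.27 to 4.17 and 1.68 to 2.84 CPM, lower than WT in both deficient groups. The NK and CD8 T cell markers, 7 of 8 tested, summed to 56.9 to 70.5, 45.1 to 151 and 78.8 to 114 CPM, with the highest sum in Foxp3-deficient 5. Every double-deficient sum was above every WT sum. Cd8b1 was called higher in double-deficient cells against Foxp3-deficient (adjusted p = 0.00425) and WT cells (adjusted p = 0.00869), and Gzma against WT (adjusted p = 0.0108). Eomes was called lower between the deficient groups (adjusted p = 0.0381), and the other markers of this list were not called. Plasma cell markers summed to 245 to 272, 179 to 219 and 228 to 258 CPM, mostly Xbp1 and Prdm1, with Mzb1 at 0 to 0.225 CPM in every library. Jchain was at 0.2203 to 3.12 CPM for WT, 0.325 to 1.903 CPM for Foxp3-deficient and 7.62 to 13.6 CPM for double-deficient libraries and was called higher in the last against Foxp3-deficient (log2 FC 3.72, SE 0.65, adjusted p = 0.00186) and WT cells (log2 FC 3.23, SE 0.63, adjusted p = 0.00183). Sdc1, at 0.431 to 1.01, 0.607 to 1.34 and 1.83 to 2.52 CPM, was also called higher in double-deficient cells in both comparisons. Other plasma cell markers did not follow these. Prdm1 was called lower in Foxp3-deficient cells against WT and higher between the deficient groups. It was not called in double-deficient cells against WT (adjusted p = 0.453). Xbp1 was called only as lower in Foxp3-deficient cells against WT, and Derl3 was called in no comparison. Dendritic cell markers summed to at most 8.04 CPM and platelet markers to at most 2.09 CPM. Myeloid markers summed to at most 3.71 CPM and the 6 erythroid markers to at most 1.48 CPM. The part of these markers in the results below was not tested. In sorted cells counted in bulk, a lower share of cells of one kind and less RNA per cell cannot be told apart.

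Against WT, Foxp3-deficient cells showed a rise in a set of receptor-proximal genes and a fall in 1. Of the 46 genes, 14 were called, which is 30.4% of them, where 13.7% of all genes tested were called in this comparison. Higher in Foxp3-deficient cells were 13 genes (6.99% of all genes): Themis, Stim1, Malt1, Dgka, Cd4, Txk, Cd6, Nfatc3, Rasal3, Rasgrp1, Pag1, Lck and Ptpn6. Lower was 1 gene, Cd2 (6.74% of all genes). Among the 7158 genes averaging 20 CPM or more, a level closer to that of these genes, 7.92% were called higher and 5.5% lower. The median log2 fold change over the 46 genes was 0.16, against 0.00 over all genes tested, and 1 of the 46, Themis, was called with a change of 2-fold or more (5.92% of all genes). In 18 of the 46 the libraries of the 2 groups did not overlap, as was the case for 17.8% of all genes tested.

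In the comparison of double-deficient with Foxp3-deficient cells 24 of the 46 genes were called, or 52.2%, where 27.2% of all genes were. Lower in double-deficient cells were 18 genes, against 13.3% of all genes called lower: Pag1, Nfatc2, Cbl, Rasgrp1, Cd6, Sos1, Plcg1, Ubash3a, Cblb, Malt1, Rasal3, Nfatc1, Stim1, Cd4, Vav1, Ptpn22, Lck and Dgkz. Higher were 6 genes, against 13.9% of all genes called higher: Trat1, Cd3d, Tec, Cd3g, Cd247 and Cd2. Of the 7158 genes averaging 20 CPM or more, 17.8% were called lower and 17.1% higher. The median log2 fold change of the 46 was -0.13, against -0.02 over all genes tested, and 1 gene, Trat1, was called at 2-fold or more (4.82% of all genes). The libraries of the 2 groups did not overlap in 18 of the 46, compared with 25% of all genes tested. Without double-deficient 5 the genes called lower were 11 in place of 18, and 7.68% of all genes were called lower in place of 13.3%. With the trend of gene length and GC content removed from each library, 15 genes were called, 11 lower and 4 higher, where 20.4% of all genes were called.

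Between double-deficient and WT cells 16 of the 46 genes were called (34.8%), close to the 32.6% of all genes. Higher in double-deficient cells were 9 (15.8% of all genes), namely Themis, Trat1, Tec, Dgka, Cd247, Txk, Cd3d, Stim1 and Zap70, and lower were 7 (16.8% of all genes), namely Cbl, Nfatc2, Ubash3a, Nfatc1, Pag1, Cblb and Sos1. Of the 7158 genes averaging 20 CPM or more, 37.5% were called, 20% higher and 17.5% lower. The median log2 fold change of the 46 was 0.06, against -0.03 over all genes. Of the 46, 2 genes, Themis and Trat1, were called at 2-fold or more (9.37% of all genes). Non-overlapping libraries were found in 24 of the 46 genes, against 39.7% of all genes tested. Fitted with the 8 libraries of these 2 groups alone, 26 genes were called, 15 higher and 11 lower, where 43.6% of all genes were. Foxp3-deficient 1 enters this comparison only through filtering, scaling and the shared estimate of spread. Without it 21 were called, 14 higher and 7 lower (38.1% of all genes). Without Foxp3-deficient 1 and 3 together 26 were called, 16 higher and 10 lower (41.2% of all genes). Each of the 3 groups enters 2 of the 3 comparisons, so the comparisons are not independent, and below each gene's values are set side by side. Across all 3 comparisons 16 genes were never called: Cd3e, Cd5, Cd69, Fyn, Lat, Lcp2, Grap2, Grb2, Tagap, Orai1, Bcl10, Ptprc, Csk, Ubash3b, Sla and Sla2.

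**Figure D1:**
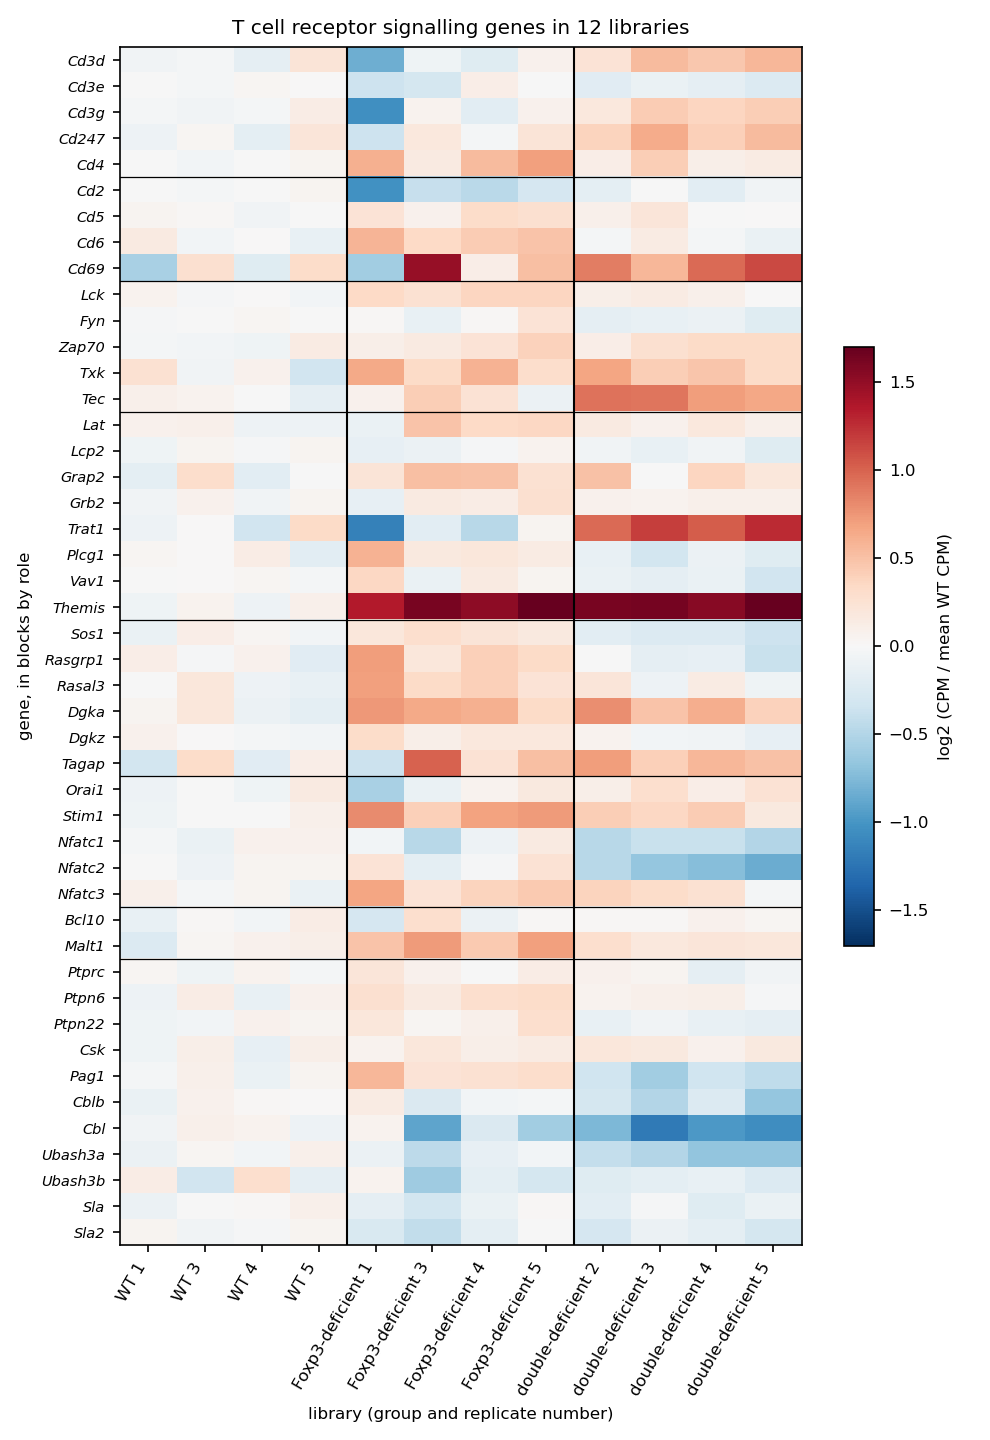
Level of each of the 46 genes (rows, grouped by role) in each of the 12 libraries (columns), as the log2 of its CPM over the mean CPM of the WT libraries. Themis stands above WT in all 8 deficient libraries, Trat1 in the 4 double-deficient libraries, and Cbl, Nfatc2 and Ubash3a below WT in the 4 double-deficient libraries.

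The receptor chains did not move as a unit. Cd3d, Cd3g and Cd3e encode the CD3 delta, gamma and epsilon chains and lie side by side on chromosome 9 (GRCm38), where 1354 bases separate Cd3g (44969572 to 44980431, minus strand) from Cd3d (44981786 to 44987339, plus strand) and Cd3e lies 11400 bases farther on. Cd247, on chromosome 1, encodes the zeta chain. Cd3d was at 384, 392, 360.01 and 465 CPM in the WT libraries, 226, 380.3, 347 and 421 CPM in the Foxp3-deficient libraries and 471, 580.3, 550.3 and 589 CPM in the double-deficient libraries. All 4 double-deficient libraries lay above the other 8, and Foxp3-deficient 1 was the lowest of the 12. Cd3d rose in double-deficient cells against Foxp3-deficient (log2 FC 0.67, SE 0.15, adjusted p = 0.00568) and against WT cells (log2 FC 0.45, SE 0.15, adjusted p = 0.0304). Cd3g was at 713, 698, 709 and 791 CPM in the WT libraries, 352, 759.7, 644 and 766 CPM in the Foxp3-deficient libraries and 824, 977, 934 and 976 CPM in the double-deficient libraries, again with the double-deficient libraries above all others. It rose against Foxp3-deficient cells (log2 FC 0.56, SE 0.18, adjusted p = 0.0317) but did not pass the test against WT (adjusted p = 0.141). Cd247 was at 447, 483, 421 and 545 CPM in the WT libraries, 370.5, 536, 462 and 553 CPM in the Foxp3-deficient libraries and 614, 737, 629 and 686 CPM in the double-deficient libraries, and here too the 4 double-deficient libraries were the highest. It rose against Foxp3-deficient (log2 FC 0.47, SE 0.12, adjusted p = 0.00997) and WT cells (log2 FC 0.49, SE 0.12, adjusted p = 0.0056). Exons of Pou2f1 on the opposite strand cover 56.43% of the exonic length of Cd247, and the strand setting of the counting is not given in the sources used here, so reads of these 2 genes may not be told apart. Cd3e was at 1205, 1180.04, 1237 and 1221 CPM in the WT libraries, 948, 987, 1303 and 1203 CPM in the Foxp3-deficient libraries and 1055, 1122, 1088 and 1028 CPM in the double-deficient libraries, was called in no comparison, and its double-deficient libraries lay below all 4 WT libraries, the other way from its neighbours (adjusted p = 0.158 against WT and 0.718 against Foxp3-deficient cells).

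The Cd3d and Cd3g promoters are shown because these neighbours face away from each other across a short gap and both rose between the deficient groups. The windows run from 250 bases before to 50 after the start (RefSeq, GRCm38.p6), at chr9:44981536-44981835 on the plus strand and chr9:44980382-44980681 on the minus strand. Capitals mark the 1 match to the ETS motif GGAAGT in the Cd3d window, on the opposite strand at -199; the Cd3g window holds none of the 4 motifs searched.
Cd3d promoter: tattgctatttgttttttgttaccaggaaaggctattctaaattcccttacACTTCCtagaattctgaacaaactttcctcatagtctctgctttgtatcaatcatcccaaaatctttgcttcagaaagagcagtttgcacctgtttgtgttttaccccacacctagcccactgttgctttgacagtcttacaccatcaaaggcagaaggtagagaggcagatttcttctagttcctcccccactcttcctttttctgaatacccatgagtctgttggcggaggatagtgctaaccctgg
Cd3g promoter: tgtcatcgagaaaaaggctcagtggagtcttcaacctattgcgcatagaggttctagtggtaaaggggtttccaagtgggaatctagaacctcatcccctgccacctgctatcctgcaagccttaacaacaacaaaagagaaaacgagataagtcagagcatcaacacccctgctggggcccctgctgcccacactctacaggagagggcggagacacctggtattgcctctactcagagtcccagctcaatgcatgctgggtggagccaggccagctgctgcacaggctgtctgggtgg

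Cd4 encodes the coreceptor that carries Lck to the receptor and on which the cells were sorted. It was at 756, 732, 756 and 782 CPM in the WT libraries, 1149.8, 838, 1102 and 1226 CPM in the Foxp3-deficient libraries and 818, 1007, 807 and 834 CPM in the double-deficient libraries. All Foxp3-deficient libraries lay above all WT libraries and Cd4 rose (log2 FC 0.51, SE 0.11, adjusted p = 0.00327). Against Foxp3-deficient cells it fell in double-deficient cells (log2 FC -0.32, SE 0.11, adjusted p = 0.0368), where double-deficient 3 overlapped the Foxp3-deficient libraries, and that call was lost when any of WT 4, Foxp3-deficient 1, 4 or 5 or double-deficient 2, 4 or 5 was left out (log2 FC -0.32 to -0.24). The Cd3g call between the deficient groups was lost without Foxp3-deficient 4 or double-deficient 3, 4 or 5 (log2 FC 0.54 to 0.57). The Cd3d call against WT was lost without WT 1, 3 or 4 or double-deficient 3, 4 or 5 (log2 FC 0.40 to 0.45). Per kilobase of exonic length, the order of the chains in WT cells was Cd3e at 297, Cd3g at 223, Cd3d at 220.5 and Cd247 at 89.01 CPM per kb. In double-deficient cells it was Cd3d at 302, Cd3g at 284, Cd3e at 263 and Cd247 at 125 CPM per kb, with Cd3d and Cd3g within their spread of each other (SD 29.6 and 22.02 CPM per kb). The place of Cd247 in both orders is uncertain, since Pou2f1 exons overlap 56.43% of the length it was divided by.

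Among the surface molecules that tune the receptor, Cd2 and Cd6 moved in opposite directions. CD2 is an adhesion receptor that binds CD48 in mice and helps T cells engage their partners. Cd2 was at 886, 876, 888 and 919.7 CPM in the WT libraries, 436, 681, 649.8 and 734 CPM in the Foxp3-deficient libraries and 794, 889, 789 and 859 CPM in the double-deficient libraries. Each of the 4 Foxp3-deficient libraries was below the other 8, with Foxp3-deficient 1 the lowest. Cd2 fell in Foxp3-deficient against WT cells (log2 FC -0.51, SE 0.12, adjusted p = 0.00796) and rose from there in double-deficient cells (log2 FC 0.41, SE 0.12, adjusted p = 0.0201). CD6 and CD5 are related scavenger-receptor proteins that damp receptor signals, and their genes are neighbours on chromosome 19. Cd6 was at 1235, 1077, 1117 and 1021 CPM in the WT libraries, 1662, 1408, 1500.3 and 1556 CPM in the Foxp3-deficient libraries and 1088, 1224, 1089 and 1027 CPM in the double-deficient libraries. The Foxp3-deficient libraries lay above all others: Cd6 rose against WT (log2 FC 0.46, SE 0.08, adjusted p = 0.00103) and fell again in double-deficient cells (log2 FC -0.47, SE 0.08, adjusted p = 0.00139), whose libraries overlapped WT. Cd5 ran from 731 to 792 CPM for WT, 808 to 949 CPM for Foxp3-deficient and 765 to 885 CPM for double-deficient libraries and missed the threshold (adjusted p = 0.0554 for Foxp3-deficient against WT). CD69 is an early activation antigen; Cd69 had the widest relative spread of the 46, with Foxp3-deficient libraries from 159 to 668 CPM, and was called in no comparison.

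Of the kinases, Lck, the Src-family kinase that starts the cascade, had the highest level per kilobase of all 46 genes in every group (626, 790.2 and 662 CPM per kb in WT, Foxp3-deficient and double-deficient cells). It was at 1904, 1814, 1844 and 1768 CPM in the WT libraries, 2324, 2192, 2371 and 2371 CPM in the Foxp3-deficient libraries and 1956, 2018, 1946 and 1836 CPM in the double-deficient libraries. Foxp3-deficient libraries lay above all others, by a modest margin: Lck rose against WT (log2 FC 0.34, SE 0.06, adjusted p = 0.00182) and fell in double-deficient cells (log2 FC -0.26, SE 0.06, adjusted p = 0.0105). Fyn, the second Src-family kinase of T cells, was at 1029, 1043, 1071 and 1045 CPM in the WT libraries, 1063, 962, 1066 and 1226 CPM in the Foxp3-deficient libraries and 945, 957, 973 and 908 CPM in the double-deficient libraries and was not called. Zap70, the kinase that docks on the phosphorylated chains, was at 285, 283, 277 and 323 CPM in the WT libraries, 313, 324, 343 and 382 CPM in the Foxp3-deficient libraries and 317, 352, 365 and 366 CPM in the double-deficient libraries. It was called higher for double-deficient against WT cells (log2 FC 0.26, SE 0.08, adjusted p = 0.0236), where the libraries overlapped. The call was lost without WT 1, 3 or 4 or double-deficient 4 or 5 (log2 FC 0.24). Foxp3-deficient against WT cells missed the threshold (log2 FC 0.22, SE 0.08, adjusted p = 0.09) and passed it with the length and GC trend removed (log2 fold change 0.24, adjusted p = 0.0438). In that run 10.2% of all genes were called higher, in place of 6.99%. The median log2 fold change over all genes was 0.05 in place of 0.00.

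Txk and Tec, Tec-family kinases that help activate phospholipase C gamma, are neighbours on chromosome 5 with 2938 bases between them, and they changed at different steps. Txk was at 152, 122, 134 and 102 CPM in the WT libraries, 199, 159.6, 192 and 156 CPM in the Foxp3-deficient libraries and 202, 171, 176 and 159.9 CPM in the double-deficient libraries. Both deficient groups lay above WT (Foxp3-deficient log2 FC 0.47, SE 0.12, adjusted p = 0.0134; double-deficient log2 FC 0.48, SE 0.12, adjusted p = 0.00721) and did not pass the test between them (adjusted p = 0.987, 95% interval of the log2 difference -0.23 to 0.24). Tec was at 24.5, 24.1, 23.1 and 20.8 CPM in the WT libraries, 24.4, 30.99, 27.5 and 21.5 CPM in the Foxp3-deficient libraries and 44.01, 43.3, 37.8 and 36.5 CPM in the double-deficient libraries. The 4 double-deficient libraries lay above all 8 others; Tec rose against Foxp3-deficient (log2 FC 0.63, SE 0.12, adjusted p = 0.00273) and WT cells (log2 FC 0.81, SE 0.12, adjusted p = 0.000225). Per kilobase the Txk to Tec ratio within a library was 1.88 ± 0.212 for WT, 2.36 ± 0.434 for Foxp3-deficient and 1.502 ± 0.1102 for double-deficient cells (mean ± SD, n = 4).

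**Figure D2:**
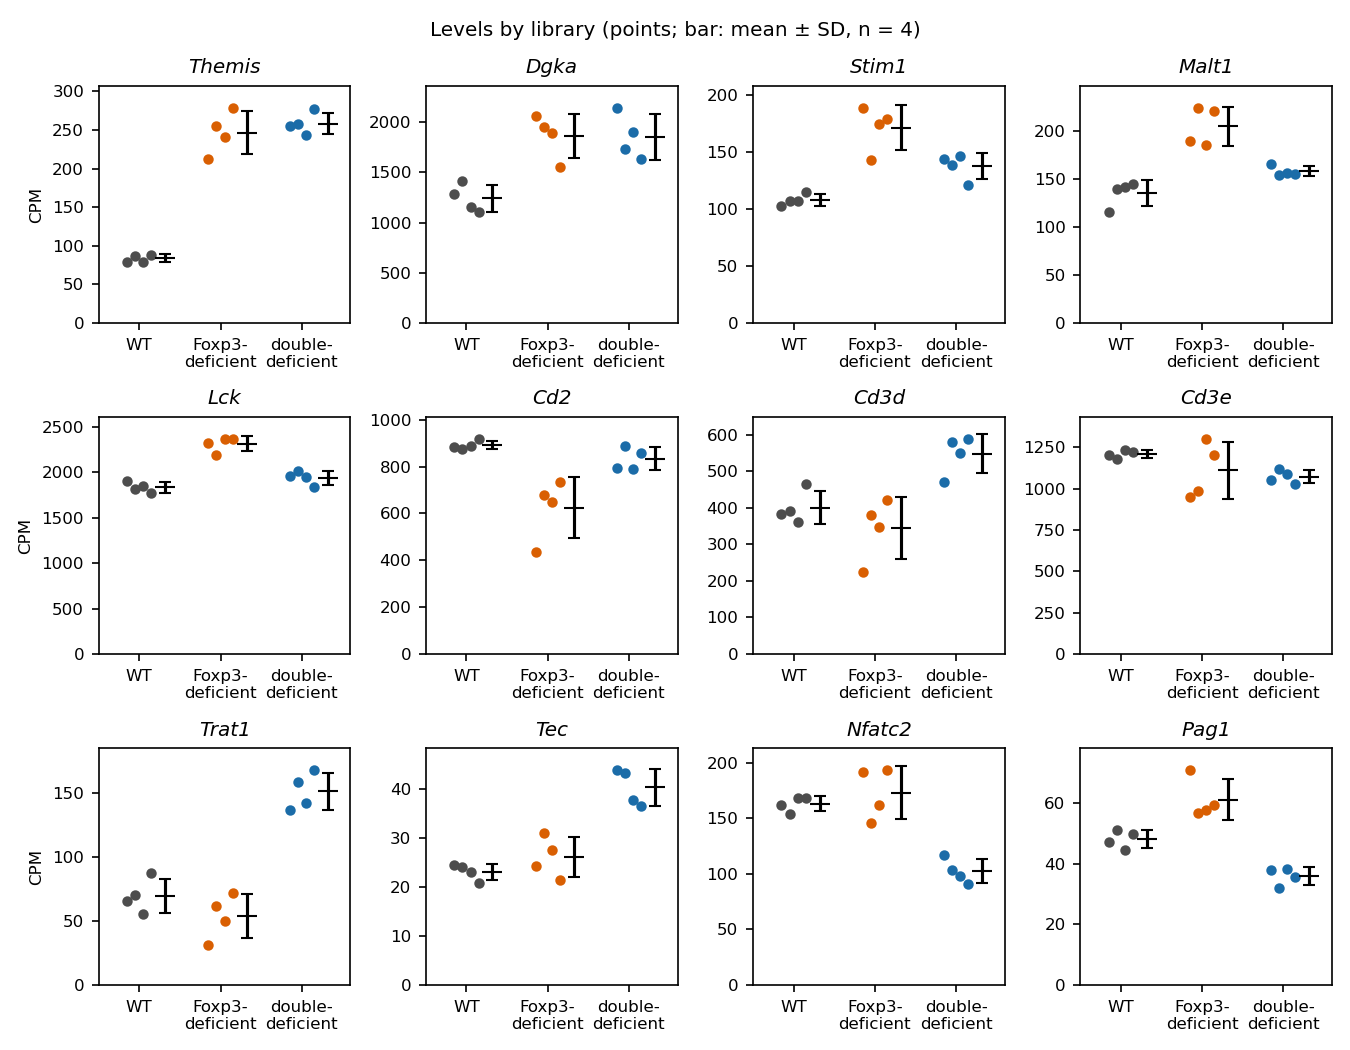
CPM of selected genes in each library (points) with the mean and SD of each group of 4. Themis is at 79.1 to 88.7 CPM in WT and 212 to 279 CPM in the deficient libraries, and Trat1 is at 137 to 169 CPM in double-deficient libraries against 31.6 to 87.9 CPM in the others.

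The largest changes were in 2 adaptors. THEMIS is a T cell protein that associates with Grb2 and the phosphatase SHP-1 and sets receptor signal strength during thymic development. Themis (chromosome 10, 28668360 to 28883818, plus strand) was at 79.2, 87.4, 79.1 and 88.7 CPM in the WT libraries, 212, 255, 241 and 279 CPM in the Foxp3-deficient libraries and 255, 257, 244 and 277 CPM in the double-deficient libraries. All 8 deficient libraries lay far above the 4 WT libraries. It rose in Foxp3-deficient (log2 FC 1.56, SE 0.09, adjusted p = 8.53e-09) and double-deficient cells (log2 FC 1.63, SE 0.09, adjusted p = 2.95e-09) against WT, and did not pass the test between the deficient groups (adjusted p = 0.593, 95% interval of the log2 difference -0.10 to 0.23). Trat1 (chromosome 16, 48730774 to 48772021, minus strand) encodes TRIM, a transmembrane adaptor associated with the receptor complex. It was at 65.8, 70.3, 56 and 87.9 CPM in the WT libraries, 31.6, 61.9, 50.3 and 72.3 CPM in the Foxp3-deficient libraries and 137, 159, 142 and 169 CPM in the double-deficient libraries. Double-deficient libraries lay above all others, and Foxp3-deficient 1 had the lowest level. Trat1 rose against Foxp3-deficient (log2 FC 1.49, SE 0.20, adjusted p = 0.000308) and WT cells (log2 FC 1.12, SE 0.20, adjusted p = 0.000909) and did not pass between Foxp3-deficient and WT (adjusted p = 0.265).

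The promoters of Themis and Trat1 are shown as those of the genes with the largest changes, Themis in both deficient groups and Trat1 in the double-deficient group. Their windows are chr10:28668110-28668409 on the plus strand, for the first RefSeq start listed, and chr16:48772013-48772312 on the minus strand. No motif searched is in the Themis window. Capitals in the Trat1 window mark the RUNX motif TGTGGT, on the opposite strand at -76.
Themis promoter: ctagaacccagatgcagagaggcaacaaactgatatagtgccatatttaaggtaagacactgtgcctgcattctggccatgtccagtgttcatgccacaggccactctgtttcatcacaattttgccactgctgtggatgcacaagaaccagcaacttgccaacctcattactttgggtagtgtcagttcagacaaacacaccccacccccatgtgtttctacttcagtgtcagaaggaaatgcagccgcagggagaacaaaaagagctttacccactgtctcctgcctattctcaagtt
Trat1 promoter: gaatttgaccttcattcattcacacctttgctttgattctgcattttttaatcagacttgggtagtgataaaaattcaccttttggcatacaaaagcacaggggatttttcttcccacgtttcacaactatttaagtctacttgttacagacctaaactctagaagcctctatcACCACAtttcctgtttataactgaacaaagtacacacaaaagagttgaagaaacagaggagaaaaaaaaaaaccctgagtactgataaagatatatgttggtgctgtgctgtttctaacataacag

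Plcg1 and Vav1, which act at the LAT and SLP-76 platform, fell between the deficient groups, while the scaffolds themselves were not called. Plcg1, the phospholipase that splits the signal, was at 359.9, 353, 384 and 312 CPM in the WT libraries, 528, 394, 401 and 387 CPM in the Foxp3-deficient libraries and 322, 283, 329.7 and 306 CPM in the double-deficient libraries. Every double-deficient library lay below every Foxp3-deficient one and Plcg1 fell (log2 FC -0.46, SE 0.10, adjusted p = 0.00517), with Foxp3-deficient 1 the highest of all. Vav1, the exchange factor for Rac that links the receptor to the cytoskeleton, was at 367, 370.1, 378 and 361 CPM in the WT libraries, 472, 342, 410.03 and 381 CPM in the Foxp3-deficient libraries and 341, 332, 342 and 295 CPM in the double-deficient libraries. It fell between the deficient groups (log2 FC -0.29, SE 0.09, adjusted p = 0.0257), although Foxp3-deficient 3 overlapped the double-deficient libraries and the call was lost without Foxp3-deficient 1 or 4 or double-deficient 3 or 5 (log2 FC -0.29 to -0.21). The scaffolds Lat and Lcp2 and the adaptors Grap2 (GADS) and Grb2 were called in no comparison. Lat ran from 656 to 996 CPM, Lcp2 from 696 to 835 CPM, Grb2 from 167 to 219.9 CPM and Grap2 from 26.4 to 42.5 CPM over the 12 libraries.

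In the Ras and diacylglycerol arm, 3 of 6 genes rose in Foxp3-deficient cells and 4 of 6 fell from there in double-deficient cells, where 6.99% of all genes were called higher in the first comparison and 13.3% lower in the second. With the length and GC trend removed, the falls of Rasal3 and Dgkz between the deficient groups were lost. Rasgrp1, the diacylglycerol-activated exchange factor that switches on Ras in T cells, was at 570.4, 519, 556 and 460.2 CPM in the WT libraries, 863, 602, 695 and 662 CPM in the Foxp3-deficient libraries and 526, 473, 477 and 404 CPM in the double-deficient libraries. The Foxp3-deficient libraries lay above all others. Rasgrp1 rose against WT (log2 FC 0.42, SE 0.11, adjusted p = 0.0175) and fell in double-deficient cells (log2 FC -0.59, SE 0.11, adjusted p = 0.0022); the first call was lost without WT 3 or 5 (log2 FC 0.36 to 0.41). Rasal3, a GTPase-activating protein that turns Ras off, was at 1261, 1440.3, 1195 and 1155 CPM in the WT libraries, 2055, 1586, 1679.5 and 1478 CPM in the Foxp3-deficient libraries and 1463, 1194, 1387 and 1198 CPM in the double-deficient libraries. It followed the same order of groups, rising against WT (log2 FC 0.43, SE 0.11, adjusted p = 0.0132) and falling in double-deficient cells (log2 FC -0.37, SE 0.11, adjusted p = 0.0194), the second call being lost without Foxp3-deficient 1 or double-deficient 3 or 5 (log2 FC -0.33 to -0.27). Sos1, the Grb2-bound Ras exchange factor, was at 47.7, 55.7, 52.5 and 49.7 CPM in the WT libraries, 58.7, 62.4, 59.6 and 57.8 CPM in the Foxp3-deficient libraries and 45.5, 43.6, 43.6 and 40.1 CPM in the double-deficient libraries. Its double-deficient libraries were the lowest of the 12, below Foxp3-deficient (log2 FC -0.46, SE 0.08, adjusted p = 0.00173) and WT cells (log2 FC -0.25, SE 0.08, adjusted p = 0.0338), and the call against WT was lost without WT 3 or 4 or double-deficient 3, 4 or 5 (log2 FC -0.25 to -0.21).

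Diacylglycerol kinases end the Ras signal by removing diacylglycerol. Dgka was at 1285, 1413, 1160.2 and 1107 CPM in the WT libraries, 2060.02, 1948, 1895 and 1550.1 CPM in the Foxp3-deficient libraries and 2147, 1734, 1904 and 1631 CPM in the double-deficient libraries. Both deficient groups lay above WT (Foxp3-deficient log2 FC 0.59, SE 0.11, adjusted p = 0.00139; double-deficient log2 FC 0.58, SE 0.11, adjusted p = 0.00102), and Dgka did not pass the test between them (adjusted p = 0.968, 95% interval of the log2 difference -0.22 to 0.20). Dgkz was at 813, 781, 759.5 and 752 CPM in the WT libraries, 964, 832, 876 and 879 CPM in the Foxp3-deficient libraries and 806, 753, 744 and 707 CPM in the double-deficient libraries and fell between the deficient groups (log2 FC -0.24, SE 0.07, adjusted p = 0.0219), a call lost without double-deficient 3, 4 or 5 (log2 FC -0.23 to -0.20). The ratio of Dgka to Dgkz per kilobase was 2.103 ± 0.196 for WT, 2.77 ± 0.3198 for Foxp3-deficient and 3.24 ± 0.238 for double-deficient cells, and the WT ratios (1.94 to 2.38) and double-deficient ratios (3.03 to 3.51) did not overlap. Tagap, a GTPase-activating protein, ran from 103 to 266 CPM and was not called; 23.25% of its exonic length overlaps an antisense gene.

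Of the 5 genes of the calcium and NFAT arm, 2 rose in Foxp3-deficient cells, 3 fell from there in double-deficient cells, and against WT 1 was higher and 2 lower in double-deficient cells. Of all genes, 6.99% were called higher in the first comparison and 13.3% lower in the second. In double-deficient against WT cells 15.8% of all genes were called higher and 16.8% lower. The falls of Stim1 and Nfatc1 between the deficient groups and of Nfatc1 against WT were lost with the length and GC trend removed. STIM1 senses empty calcium stores and opens the ORAI1 channel. Stim1 was at 103, 107, 107 and 115 CPM in the WT libraries, 189, 143, 174 and 179 CPM in the Foxp3-deficient libraries and 144, 138, 146 and 121 CPM in the double-deficient libraries. WT libraries were the lowest of the 12: Stim1 rose in Foxp3-deficient cells (log2 FC 0.66, SE 0.09, adjusted p = 9.78e-05) and remained above WT in double-deficient cells (log2 FC 0.35, SE 0.09, adjusted p = 0.00942) at a lower level than in Foxp3-deficient cells (log2 FC -0.32, SE 0.09, adjusted p = 0.0194, with overlap at Foxp3-deficient 3), and this last call was lost without Foxp3-deficient 1 or double-deficient 3 or 5 (log2 FC -0.31 to -0.25). Orai1 ran from 99.7 to 178 CPM and was not called. The NFAT factors enter the nucleus when calcineurin removes their phosphates. Nfatc2 was at 162, 154, 168 and 168 CPM in the WT libraries, 192, 146, 162 and 194 CPM in the Foxp3-deficient libraries and 117, 104, 98.5 and 91.3 CPM in the double-deficient libraries. The 4 double-deficient libraries lay below the other 8, and Nfatc2 fell against Foxp3-deficient (log2 FC -0.75, SE 0.10, adjusted p = 0.0002) and WT cells (log2 FC -0.67, SE 0.10, adjusted p = 0.000179). Nfatc1 was at 661, 627, 709.96 and 712 CPM in the WT libraries, 656, 488, 636 and 756 CPM in the Foxp3-deficient libraries and 489, 519.9, 522 and 481 CPM in the double-deficient libraries. It fell against WT (log2 FC -0.43, SE 0.10, adjusted p = 0.00619) and against Foxp3-deficient cells (log2 FC -0.33, SE 0.10, adjusted p = 0.0287); the second call was lost without any one of the 4 double-deficient libraries or without Foxp3-deficient 1, 4 or 5 (log2 FC -0.34 to -0.23). Nfatc3 was at 395, 365, 384 and 346 CPM in the WT libraries, 592, 439, 486 and 507 CPM in the Foxp3-deficient libraries and 485, 464, 446 and 365 CPM in the double-deficient libraries and rose in Foxp3-deficient against WT cells (log2 FC 0.44, SE 0.10, adjusted p = 0.007), and its double-deficient libraries overlapped both groups.

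The promoter at the more upstream of the Nfatc2 starts in RefSeq is shown because Nfatc2 had the largest fall of the 3 NFAT genes. Its window is chr2:168601608-168601907 on the minus strand. Capitals mark the forkhead motif TGTTTAC on the opposite strand at -185 and the ETS motif GGAAGT at -110. A match is a description of the letters only.
Nfatc2 promoter: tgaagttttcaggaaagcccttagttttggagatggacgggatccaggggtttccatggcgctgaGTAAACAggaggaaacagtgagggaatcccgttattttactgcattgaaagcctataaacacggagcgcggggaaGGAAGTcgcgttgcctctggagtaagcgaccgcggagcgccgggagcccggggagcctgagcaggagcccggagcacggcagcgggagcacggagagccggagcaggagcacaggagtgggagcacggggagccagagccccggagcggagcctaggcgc
Of the 46 genes 38 matched the RefSeq promoter table, with 55 promoters of 300 bases. On both strands, GGAAGT (ETS) was in 41.8% of those 55 and in 23.8% of all 32851 promoters of the table. GGAAAA (NFAT) was in 14.5% and 23.4%, TGTGGT (RUNX) in 14.5% and 16.8% and TGTTTAC (forkhead) in 5.46% and 3.65%. Several of the 55 windows belong to the same gene and overlap, and GGAAGT and GGAAAA share their first 4 letters but cannot match at the same position on 1 strand.

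At the NF-kB bridge, Malt1, the paracaspase that works with BCL10, was at 116, 139.6, 142 and 145 CPM in the WT libraries, 189.8, 225, 186 and 221 CPM in the Foxp3-deficient libraries and 166, 154, 157 and 156 CPM in the double-deficient libraries. Foxp3-deficient libraries lay above all others: Malt1 rose against WT (log2 FC 0.60, SE 0.09, adjusted p = 0.000199) and fell in double-deficient cells (log2 FC -0.38, SE 0.09, adjusted p = 0.00739), which still lay above WT in all 4 libraries without passing the test (adjusted p = 0.067). Its partner Bcl10 ran from 113 to 168 CPM and was not called.

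Of the 11 phosphatases, inhibitors and ubiquitin ligases, 2 rose in Foxp3-deficient cells and none was called higher in double-deficient cells in either of their comparisons, while 5 fell against Foxp3-deficient and 4 against WT cells. Of all genes, 6.99% were called higher in the first comparison, and 13.3% and 16.8% lower in double-deficient against Foxp3-deficient and WT cells. In the same order, 13.9% and 15.8% of all genes were called higher in double-deficient cells. With the length and GC trend removed, Cbl, Cblb and Ubash3a were no longer called against Foxp3-deficient cells, nor Pag1 and Cblb against WT. PAG holds the inhibitory kinase Csk at the membrane. Pag1 was at 47, 51.1, 44.3 and 49.9 CPM in the WT libraries, 70.97, 56.6, 57.7 and 59.2 CPM in the Foxp3-deficient libraries and 38.02, 31.9, 38.2 and 35.6 CPM in the double-deficient libraries. The Foxp3-deficient libraries were the highest and the double-deficient libraries the lowest, with no overlap among the 3 groups. Pag1 rose against WT (log2 FC 0.35, SE 0.10, adjusted p = 0.0302) and fell in double-deficient cells against Foxp3-deficient (log2 FC -0.77, SE 0.10, adjusted p = 0.000192) and WT cells (log2 FC -0.42, SE 0.10, adjusted p = 0.00578). The rise against WT was lost without any one WT library or without Foxp3-deficient 1 (log2 FC 0.27 to 0.37). Csk itself ran from 201 to 255 CPM and was not called. Ptpn6, which encodes SHP-1, was at 385, 448, 374 and 428 CPM in the WT libraries, 493, 455, 500.4 and 508 CPM in the Foxp3-deficient libraries and 425, 434, 439 and 404 CPM in the double-deficient libraries and rose in Foxp3-deficient cells (log2 FC 0.26, SE 0.07, adjusted p = 0.0287), a call lost when WT 1 or 4 or Foxp3-deficient 4 or 5 was left out (log2 FC 0.22 to 0.25). Ptpn22, a phosphatase of Lck and ZAP70, was at 375, 381, 414 and 408 CPM in the WT libraries, 451, 403, 419 and 479 CPM in the Foxp3-deficient libraries and 362, 379, 361 and 353 CPM in the double-deficient libraries and fell between the deficient groups, with no overlap (log2 FC -0.27, SE 0.07, adjusted p = 0.0141). Ptprc (CD45), which removes the inhibitory phosphate from Lck, had the most reads of the 46, from 2405 to 3079 CPM, and was not called.

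CBL and CBL-B are ubiquitin ligases that remove activated receptor components. Cbl was at 63.5, 70.1, 68.9 and 62.1 CPM in the WT libraries, 68.8, 35.5, 55.6 and 43.96 CPM in the Foxp3-deficient libraries and 38.8, 28.7, 33.5 and 31.95 CPM in the double-deficient libraries. Its double-deficient libraries lay below all WT libraries (log2 FC -0.99, SE 0.16, adjusted p = 0.000346) and overlapped Foxp3-deficient 3 (log2 FC -0.62, SE 0.16, adjusted p = 0.0127). Cblb was at 179.99, 204, 197 and 195 CPM in the WT libraries, 213, 164, 188 and 191 CPM in the Foxp3-deficient libraries and 158, 137, 165 and 123 CPM in the double-deficient libraries. It fell against WT (log2 FC -0.41, SE 0.10, adjusted p = 0.00551) and Foxp3-deficient cells (log2 FC -0.38, SE 0.10, adjusted p = 0.0132), the second with overlap at Foxp3-deficient 3 and lost without double-deficient 5 (log2 FC -0.30). The ratio of Cblb to Cbl per kilobase was 3.46 ± 0.168 for WT, 4.54 ± 0.861 for Foxp3-deficient and 5.18 ± 0.612 for double-deficient cells. Ubash3a (STS-2), a suppressor of receptor signalling, was at 299, 328, 309.9 and 340.2 CPM in the WT libraries, 298, 235, 289 and 309 CPM in the Foxp3-deficient libraries and 240.2, 226, 201 and 201 CPM in the double-deficient libraries. It fell against WT (log2 FC -0.56, SE 0.09, adjusted p = 0.000392) and Foxp3-deficient cells (log2 FC -0.38, SE 0.09, adjusted p = 0.00855), the latter with overlap at Foxp3-deficient 3. Its paralog Ubash3b ran from 68.2 to 127 CPM and was not called. Nor were the adaptors Sla (SLAP) at 378 to 497 CPM and Sla2 at 73.4 to 101 CPM, which promote loss of the receptor from the surface.

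The other pairs of related genes had these ratios per kilobase (mean ± SD, n = 4). Sla to Sla2 was 1.61 ± 0.105 for WT, 1.69 ± 0.0443 for Foxp3-deficient and 1.71 ± 0.111 for double-deficient cells. Ubash3a to Ubash3b was 2.08 ± 0.489, 2.12 ± 0.261 and 1.55 ± 0.156, Nfatc1 to Nfatc2 was 5.88 ± 0.123, 5.17 ± 0.437 and 6.99 ± 0.745, and Grb2 to Grap2 was 13.2 ± 1.41, 10.9 ± 1.51 and 11.6 ± 1.73 in the same order of groups. These ratios were not tested.

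**Figure D3:**
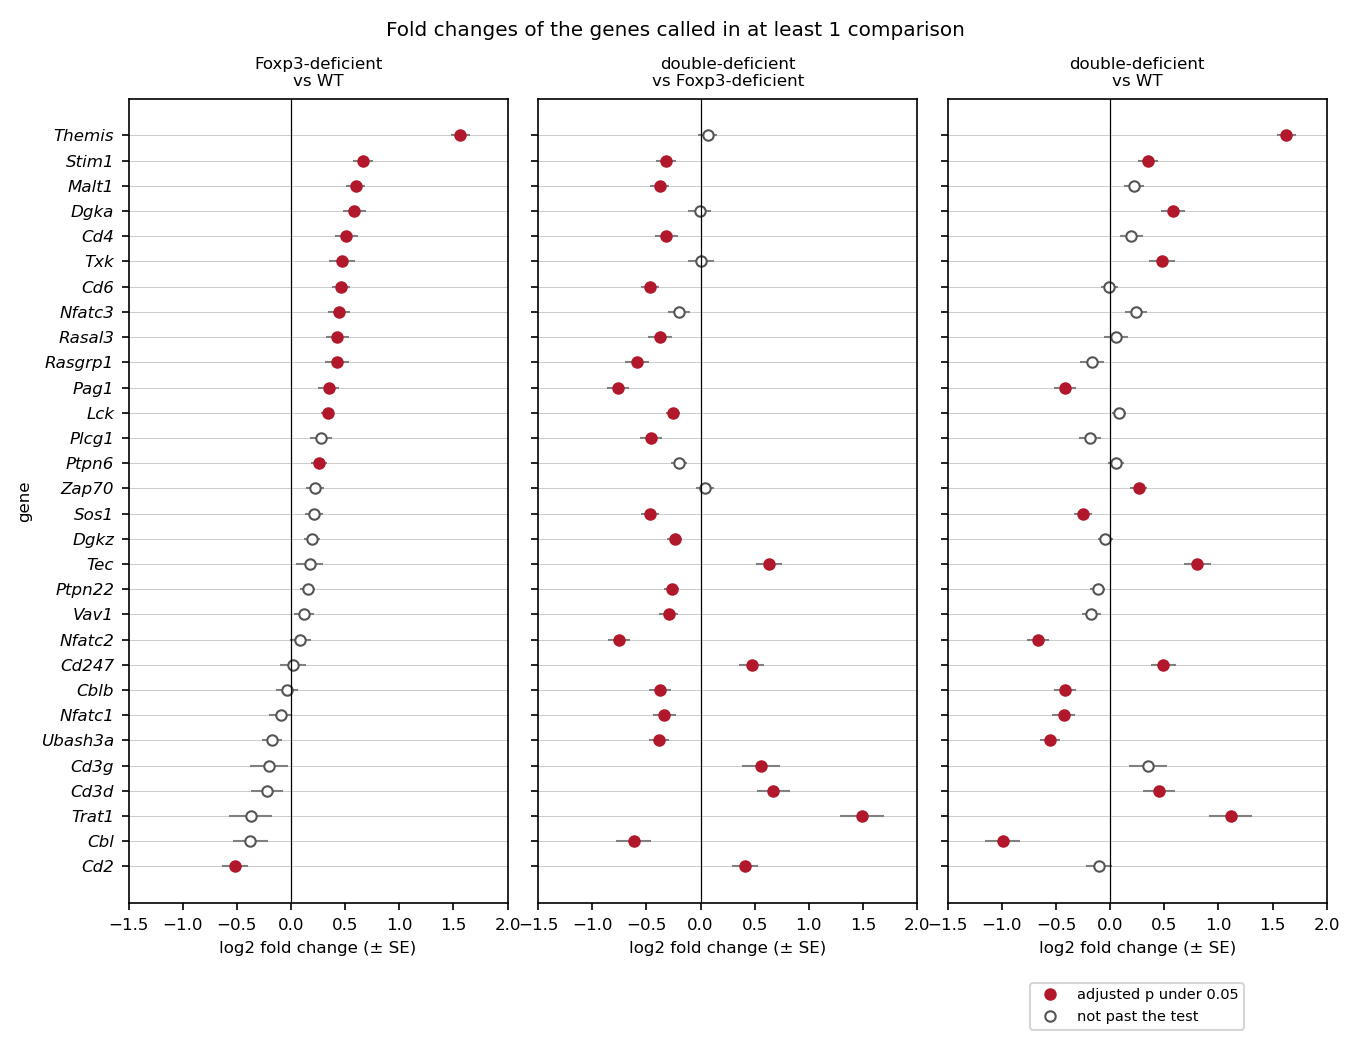
Log2 fold change with its SE of the 30 genes called in at least 1 comparison, in each of the 3 comparisons (panels); filled points passed the test. Themis has the largest rise against WT in both panels that use WT, and Pag1 and Nfatc2 the largest falls between the deficient groups.

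Gene length moved with the fold changes between the deficient groups. Over all genes tested, the median log2 fold change of double-deficient against Foxp3-deficient cells was 0.25 in the shortest of 5 classes of exonic length with equal numbers of genes and -0.22 in the longest. Of the 46 genes 17 are in the longest class (7187 bases and over) and 2 in the shortest. In the longest class 11 of the 17 were called lower and none higher, where 31.1% of all 2614 genes in the class were called lower and 6.96% higher. The 11 are Plcg1, Cd6, Sos1, Stim1, Nfatc1, Nfatc2, Malt1, Pag1, Cblb, Cbl and Ubash3a. Spearman's rho of fold change with length was -0.51 over the 46 genes and -0.29 over 13070 genes with a length, as a description across genes of the same libraries. With the trend of length and GC content removed from each library, 15 of the 46 were called between the deficient groups, 11 lower and 4 higher, in place of 24. Of all genes, 20.4% were then called in place of 27.2%. Cd3d (log2 fold change 0.49, adjusted p = 0.00663), Cd247 (log2 fold change 0.44, adjusted p = 0.0162), Tec (log2 fold change 0.59, adjusted p = 0.00607) and Trat1 (log2 fold change 1.35, adjusted p = 0.000727) remained higher. Nfatc2 (log2 fold change -0.47, adjusted p = 0.00229), Pag1 (log2 fold change -0.55, adjusted p = 0.00097) and Rasgrp1 (log2 fold change -0.53, adjusted p = 0.00266) remained lower. The calls of Cd3g, Cd2, Rasal3, Dgkz, Stim1, Nfatc1, Malt1, Cblb, Cbl and Ubash3a between the deficient groups were lost, and Ptpn6 passed as lower. Against WT, removing the trend gave 14 higher and 3 lower genes in double-deficient cells in place of 9 and 7, with Cd4, Grap2, Nfatc3, Malt1 and Ptprc gained as higher and Sos1, Nfatc1, Pag1 and Cblb lost as lower. All genes tested shifted the same way, with 18.8% called higher and 13% lower in place of 15.8% and 16.8%. Their median log2 fold change was 0.03 in place of -0.03. Themis kept its rise in Foxp3-deficient cells (log2 fold change 1.60, adjusted p = 1.78e-08). In that comparison 16 of the 46 were then called higher (10.2% of all genes), with Zap70, Lat and Plcg1 gained. Whether length itself or a property that goes with it moved these levels was not tested.

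**Figure D4:**
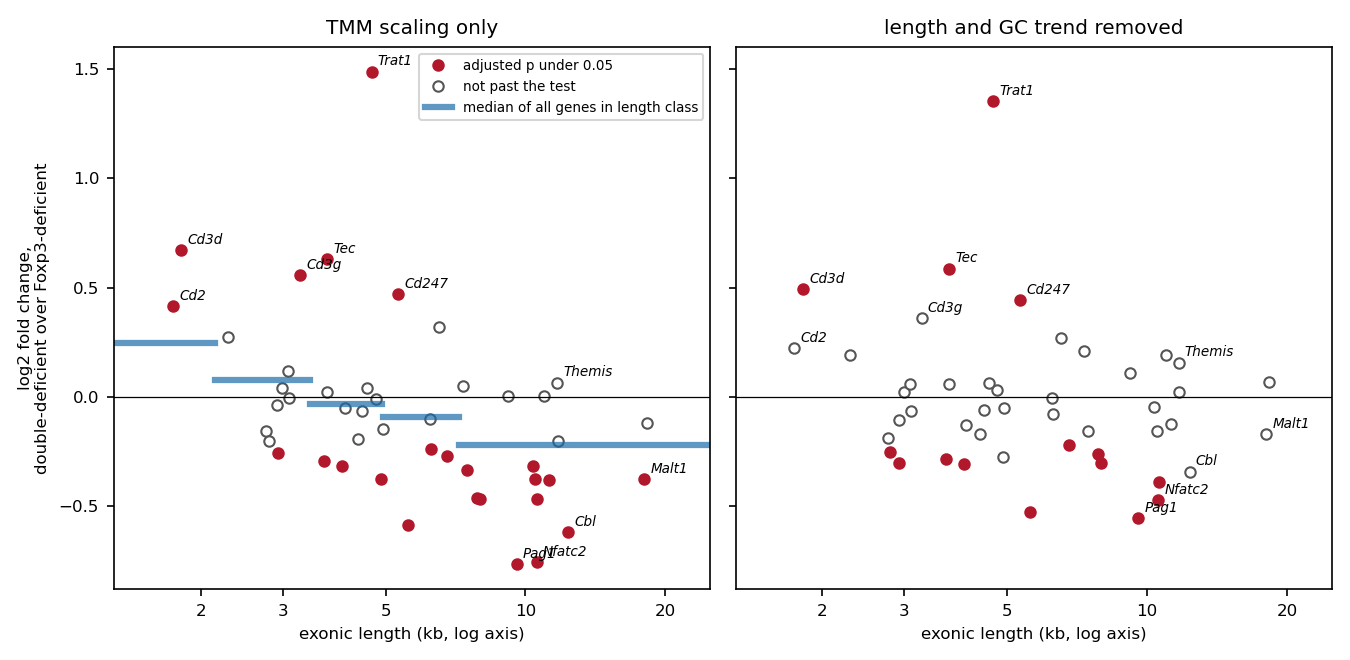
Log2 fold change of double-deficient against Foxp3-deficient cells over exonic length (log axis) for the 46 genes, with the length and GC trend left in (left, with the median of all genes in each of 5 length classes) and removed (right); filled points passed the test. With the trend left in, the median of all genes runs from 0.25 in the shortest class to -0.22 in the longest, and 11 of the 17 genes in the longest class were called lower.

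A list of 61 further genes of the receptor pathway, none among the 46, was examined beside them; 59 were tested. Of the 59, 15 were called in Foxp3-deficient against WT cells (8 higher, 7 lower), 27 between the deficient groups (8 higher, 19 lower) and 34 in double-deficient against WT cells (14 higher, 20 lower). These are 25.4%, 45.8% and 57.6% of the 59, against 13.7%, 27.2% and 32.6% of all genes tested. This list was also chosen with earlier results of these data known, so the shares are a description. Prkcq, which encodes protein kinase C theta, was at 672 ± 41.3 CPM for WT, 735 ± 38.8 CPM for Foxp3-deficient and 704 ± 60.6 CPM for double-deficient cells (mean ± SD, n = 4) and was not called. Rasgrp2, a Rap1 exchange factor, rose in Foxp3-deficient cells (log2 FC 1.09, SE 0.12, adjusted p = 1.09e-05) from 181 ± 23.8 CPM to 386 ± 49.5 CPM and was at 415 ± 56.8 CPM in double-deficient cells.

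The calcium channel gene Orai2 rose in Foxp3-deficient cells (log2 FC 0.82, SE 0.08, adjusted p = 4.12e-06) and was at 96.99 ± 5.66 CPM for WT, 172 ± 17.3 CPM for Foxp3-deficient and 191 ± 7.43 CPM for double-deficient cells. The store sensor Stim2 fell in Foxp3-deficient cells (log2 FC -0.26, SE 0.08, adjusted p = 0.0433) and again between the deficient groups (log2 FC -0.44, SE 0.08, adjusted p = 0.00202). Stim1 rose at the first of these steps and fell at the second. Vav2 (log2 FC -1.03, SE 0.12, adjusted p = 2.88e-05) and Rhoh (log2 FC -0.62, SE 0.08, adjusted p = 2.74e-05), the latter a haematopoietic GTPase needed for ZAP70 recruitment, fell in Foxp3-deficient cells. Gab3, a docking adaptor, rose in Foxp3-deficient cells (log2 FC 0.83, SE 0.11, adjusted p = 5.82e-05), and Tbc1d10c, which encodes a calcineurin and Ras inhibitor, rose between the deficient groups (log2 FC 0.34, SE 0.08, adjusted p = 0.00556).

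The spread among libraries was widest in the Foxp3-deficient group. The median coefficient of variation of the 46 genes was 6.25% for WT, 12.2% for Foxp3-deficient and 6.81% for double-deficient libraries, and 35 of the 46 had their widest spread in the Foxp3-deficient group. Foxp3-deficient 1 was low for Cd3d at 226 CPM, Cd3g at 352 CPM, Cd2 at 436 CPM, Trat1 at 31.6 CPM and Orai1 at 99.7 CPM and high for Plcg1 at 528 CPM and Rasgrp1 at 863 CPM. Summed over the 46 genes, the level was 23224 ± 169.9 CPM for WT, 26568 ± 662 CPM for Foxp3-deficient and 24499.7 ± 683 CPM for double-deficient libraries (mean ± SD, n = 4), given as a description. Leaving out Foxp3-deficient 1 and 3 together gave 15 called genes against WT, 27 between the deficient groups and 26 in double-deficient against WT cells (16 higher, 10 lower). The shares of all genes called were then 12.6%, 21.3% and 41.2%. Rasal3 lost both of its calls and Pag1 its rise in Foxp3-deficient cells.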

How the data were processed

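RNA from sorted mouse splenic Treg cells was amplified with SMART-Seq v4 and sequenced in 12 libraries, 4 per group. The authors aligned reads with STAR (2.5.1b, per the submitters' processing notes) to mm10 with a Gencode annotation and counted reads per gene with HTSeq, per the labels; the versions of HTSeq and Gencode and any strandedness option were not stated there. The labels name 2 different library kits. The deposited table holds raw counts, 25189 genes and 3 summary rows, which were left out of library sizes and tests. Sample groups came from the titles and source names.

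From these counts, edgeR 4.0.16 (R 4.3.3) was run with filterByExpr, TMM scaling and robust quasi-likelihood F tests on all 12 libraries in 1 fit, with Benjamini-Hochberg adjustment over 13196 genes and a threshold of 0.05. The test was checked on simulated data. Exonic lengths, GC content and overlaps came from GENCODE M21 (GRCm38), matched by symbol to 97.5% of genes including older symbols. Alternatives were other scalings and filters, DESeq2 1.42.0, limma-voom 3.58.1, only 2 groups, a replicate block, removal of a length and GC trend (natural splines with 5 degrees of freedom), and libraries left out. The genes and lists were chosen with earlier results of these data known. Values in every library are given for genes called in at least 1 comparison, the receptor chains, Lck, Fyn and Zap70; of the further pathway genes, those named are from the 8 with the smallest adjusted p, and Prkcq. Some items covered by this rule are not reported here. No pair of libraries held identical counts. Depth was 15769700 to 26114000 assigned reads per library, and the number of libraries limits the precision.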

Additional observations from a re-analysis of the deposited data

Results flagged for a closer look

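In 3 of the 138 sets of 4 libraries examined (46 genes in 3 groups), 1 library lay far from the other 3 by Dixon's criterion for 4 samples; chance flags about 1 in 20 sets. Cd3g was at 790.8 CPM in WT 5, with the other WT libraries at 698 to 713 CPM. Cd4 was at 1006.7 CPM in double-deficient 3, with the others at 807 to 834 CPM. Plcg1 was at 528 CPM in Foxp3-deficient 1, with the others at 387 to 401 CPM.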

How the results depend on the processing

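No called gene changed direction under any alternative run, and Cd4, Cd2, Cd6, Lck, Txk, Themis, Dgka, Stim1, Nfatc3 and Malt1 kept their calls in Foxp3-deficient against WT cells under all of them. Counts of called genes moved by over 1.5 times as follows. For Foxp3-deficient against WT, the 1 gene called lower became 2 with the replicate block and the length and GC trend removed (6.85% of all genes in place of 6.74%). Between the deficient groups, removing the trend gave 15 called genes (11 lower) in place of 24 (18 lower), and the block with the trend removed gave 9 (5 lower, 4 higher). Of all genes, 20.4% and 15.5% were called in these runs, in place of 27.2%. For double-deficient against WT, in place of 16 called (9 higher, 7 lower), fitting only these groups gave 26 (15 higher, 11 lower), removing the trend gave 14 higher and 3 lower, and the block with the trend removed gave 3 lower. Of all genes, 43.6% were called with only these groups, in place of 32.6%. Removing the trend gave 18.8% higher and 13% lower, in place of 15.8% and 16.8%, and the block with the trend removed 10.4% lower. In the same comparison, 21 genes (14 higher, 7 lower) were called without Foxp3-deficient 1 and 26 (16 higher, 10 lower) without Foxp3-deficient 1 and 3 together, libraries that enter it only through filtering, scaling and the shared spread. In these runs 38.1% and 41.2% of all genes were called. The cause of these moves was not tested.

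With each of the 12 libraries left out in turn, called genes ran from 12 to 17 (11 to 15 higher, 1 to 2 lower) for Foxp3-deficient against WT, from 16 to 27 (5 to 7 higher, 11 to 20 lower) between the deficient groups and from 13 to 21 (7 to 14 higher, 6 to 7 lower) for double-deficient against WT. The shares of all genes called ran from 9.98 to 14.4%, 15.9 to 32.8% and 23.2 to 38.1% in the same order. The single gene called lower in Foxp3-deficient cells became 2 without Foxp3-deficient 1 or 5 (6.68% and 6.89% of all genes). The 18 lower between the deficient groups became 11 without double-deficient 5 (7.68% of all genes in place of 13.3%). DESeq2 called 17, 26 and 17 of the 46 genes (16.9%, 31.3% and 36.2% of all genes) and limma-voom 15, 25 and 18 (14.2%, 28.1% and 34.2%).

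The replicate block alone gave 12, 20 and 16 called genes in the 3 comparisons, with 13.5%, 20.9% and 26.5% of all genes called. Ptpn6 and Pag1 were lost for Foxp3-deficient against WT, and between the deficient groups Cd4, Vav1, Stim1 and Nfatc1 were lost. Deviations of same-numbered libraries correlated at 0.03 to 0.20 for Foxp3-deficient and WT, over 0.1 in 3 of 4 pairs, and at -0.04 to 0.06 and -0.05 to 0.04 in the other comparisons; not every library correlated best with its own number. These values do not settle whether Foxp3-deficient and WT libraries of the same number share a mouse, and the labels do not say. The main test leaves the numbers out, and the block is given as an alternative.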

Other observations

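The alpha and beta chain genes of the receptor are among the further pathway genes and were singled out here after their values were seen. The constant-region genes Trbc1 and Trbc2 rose in double-deficient against Foxp3-deficient cells (Trbc1 log2 FC 0.59, SE 0.15, adjusted p = 0.0104; Trbc2 log2 FC 0.61, SE 0.14, adjusted p = 0.00608). Trbc2 was at 899.7, 878, 843 and 969 CPM in the WT libraries, 573, 1045, 827 and 925 CPM in the Foxp3-deficient libraries and 1115, 1379, 1271 and 1373 CPM in the double-deficient libraries, and Foxp3-deficient 1 had the lowest level, as for Cd3d and Cd3g. Trac, the alpha chain constant-region gene, fell in the same comparison (log2 FC -0.34, SE 0.08, adjusted p = 0.00827) and was at 1639, 1615, 1727 and 1681 CPM in the WT libraries, 1585, 1849, 2084 and 1975 CPM in the Foxp3-deficient libraries and 1486, 1556, 1466 and 1415 CPM in the double-deficient libraries. Trbc1 and Trbc2 are near-identical copies, so how reads were divided between them is uncertain.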
